A study of Homo sapiens with 16 samples.

Results

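The HOX cluster genes are the 39 coding genes whose symbol is HOXA, HOXB, HOXC or HOXD followed by a number, without the antisense genes between them. They were picked by symbol alone from the 26258 genes of the CPM table, and all 39 are in it. RNA of 2 human hepatocellular carcinoma (HCC) cell lines, Huh7 and Hep3B, was sequenced in 16 libraries, with 2 replicates in each of 8 groups. In both lines parental cells stood beside a DMSO group and beside 2 resistant lines, IR, selected in stepwise increasing concentrations of the multi-kinase inhibitor Sorafenib, and CR, selected at a constant high concentration. The labels give 7 µM Sorafenib for IR and CR libraries and none for parental and DMSO libraries, so exposure to the drug and resistance to it cannot be told apart. The labels do not say that the 2 replicates of a group are separate cultures, and p-values measure the spread between these samples, which may be technical. Whether each resistant line is a clone or a mixed population is not given in the sources used here.

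HOX genes encode transcription factors that bind DNA through a homeodomain and give cells their position along the body axis. They lie in 4 clusters, and within a cluster the paralog number runs from genes used towards the head (anterior, here numbers 1 to 3) through a middle class (central, 4 to 8) to genes used towards the tail (posterior, 9 to 13). Polycomb complexes keep whole stretches of a cluster silent, retinoic acid opens the anterior end, and many HOX proteins bind DNA beside PBX and MEIS cofactors. HOX genes are often expressed out of place in carcinomas, and HOXA13 has been linked to HCC.

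HOXA, with 11 genes, spans 107 kb of chromosome 7 (chr7:27132612-27239710, GRCh37). HOXB holds 10 genes on chromosome 17 (chr17:46605888-46806112), HOXC 9 genes on chromosome 12 (chr12:54332615-54449814) and HOXD 9 genes on chromosome 2 (chr2:176957449-177055635). Of the 39 genes, 8 are anterior, 15 central and 16 posterior, and HOXC has no anterior gene.

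The homeobox, the 180 bases that code for the 60 residues of the homeodomain, is shown for 5 members with clear differences between groups, because it is the part that HOX genes share and the one in which reads could be confused between them. It lies in a single exon in each of the 39 genes. The sequences were read from GENCODE transcripts placed on GRCh37 and are given on the coding strand. Capitals mark the 18 bases that code for the core WFQNRR of the recognition helix, which lies in the major groove of DNA.
HOXA5 (chr7:27181505-27181684, minus strand): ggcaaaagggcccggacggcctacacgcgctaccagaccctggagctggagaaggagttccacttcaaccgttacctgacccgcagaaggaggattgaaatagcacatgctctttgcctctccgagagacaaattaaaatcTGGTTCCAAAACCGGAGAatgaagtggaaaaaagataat
HOXA10 (chr7:27211566-27211745, minus strand): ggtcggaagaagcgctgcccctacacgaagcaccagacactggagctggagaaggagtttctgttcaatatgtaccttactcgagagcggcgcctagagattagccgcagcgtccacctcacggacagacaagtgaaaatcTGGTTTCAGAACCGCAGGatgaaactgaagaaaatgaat
HOXA11 (chr7:27222457-27222636, minus strand): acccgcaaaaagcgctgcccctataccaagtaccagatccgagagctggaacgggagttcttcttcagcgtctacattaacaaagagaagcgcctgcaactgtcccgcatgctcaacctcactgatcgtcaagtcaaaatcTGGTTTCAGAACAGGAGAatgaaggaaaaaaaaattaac
HOXC10 (chr12:54383003-54383182, plus strand): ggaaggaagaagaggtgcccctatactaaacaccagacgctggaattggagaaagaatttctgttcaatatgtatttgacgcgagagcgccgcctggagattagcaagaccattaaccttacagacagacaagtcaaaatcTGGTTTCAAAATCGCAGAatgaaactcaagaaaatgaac
HOXC13 (chr12:54338825-54339004, plus strand): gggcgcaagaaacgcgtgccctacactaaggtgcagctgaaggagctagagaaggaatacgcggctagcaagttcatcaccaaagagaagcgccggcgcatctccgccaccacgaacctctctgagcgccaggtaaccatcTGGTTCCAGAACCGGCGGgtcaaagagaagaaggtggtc
The paralogs HOXA10 and HOXC10, which sit at the same place in different clusters, were identical at 81.7% of homeobox bases, more than the neighbors HOXA10 and HOXA11 (69.4%) or, within HOXC, HOXC10 and HOXC13 (56.1%). Over all 741 pairs the identity lay between 47.8% and 91.1%. With 1 transcript taken per gene, the longest identical run between any pair was 62 bases, against the 75 cycles the labels give, and the authors kept unique hits only. Other annotated transcripts share more, since exons of HOXD11 overlap those of HOXD10 over 452 bases and exons of HOXB6 those of HOXB3 over 187 bases on the same strand, and reads there cannot be told apart.

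Values are CPM, the reads of a gene scaled to the read total of its library, and each could be turned back into whole reads with a tolerance of 0.05 reads. Libraries held 46613302 to 76860251 reads, so that 3 reads, the limit that a count of 0 allows for counting error only, stood for 0.0391 to 0.0645 CPM. Replicates were less alike in 2 groups, by the SD of the replicate difference in log2 CPM over genes with a group mean from 10 CPM upwards. This SD was 0.585 for the DMSO and 0.564 for the IR libraries of Huh7 against 0.22 to 0.32 in the other groups. Most HOX genes were lower than that, and their spread was not measured this way. Both lines expressed the hepatocyte markers on a list of 10, with summed levels of 10710 and 16251 CPM in Huh7 parental and 17152 and 21248 CPM in Hep3B parental cells. These sums were lower in every resistant library, at 124 and 492 CPM (IR) and 1380 and 2810 CPM (CR) for Huh7 and at 3587 and 10347 CPM (IR) and 1325 and 2157 CPM (CR) for Hep3B. In bulk RNA, fewer cells that express a gene and less RNA per cell cannot be told apart.

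Of the 39 genes, 6 had no read in any library, 17 had some reads but did not reach 1 CPM in 2 libraries, and 16 passed that filter and were tested. The 16 were 9 of 11 HOXA and 7 of 9 HOXC genes, with no HOXB and no HOXD gene, and they were 3 of 8 anterior, 6 of 15 central and 7 of 16 posterior genes. Both lines used HOXA, whereas HOXC was read in Huh7 cells almost alone. Summed HOXC levels were 33.9 ± 3.90 CPM in Huh7 parental and 0.111 CPM in Hep3B parental cells (mean of 2 libraries, SD for Huh7).

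**Figure D1:**
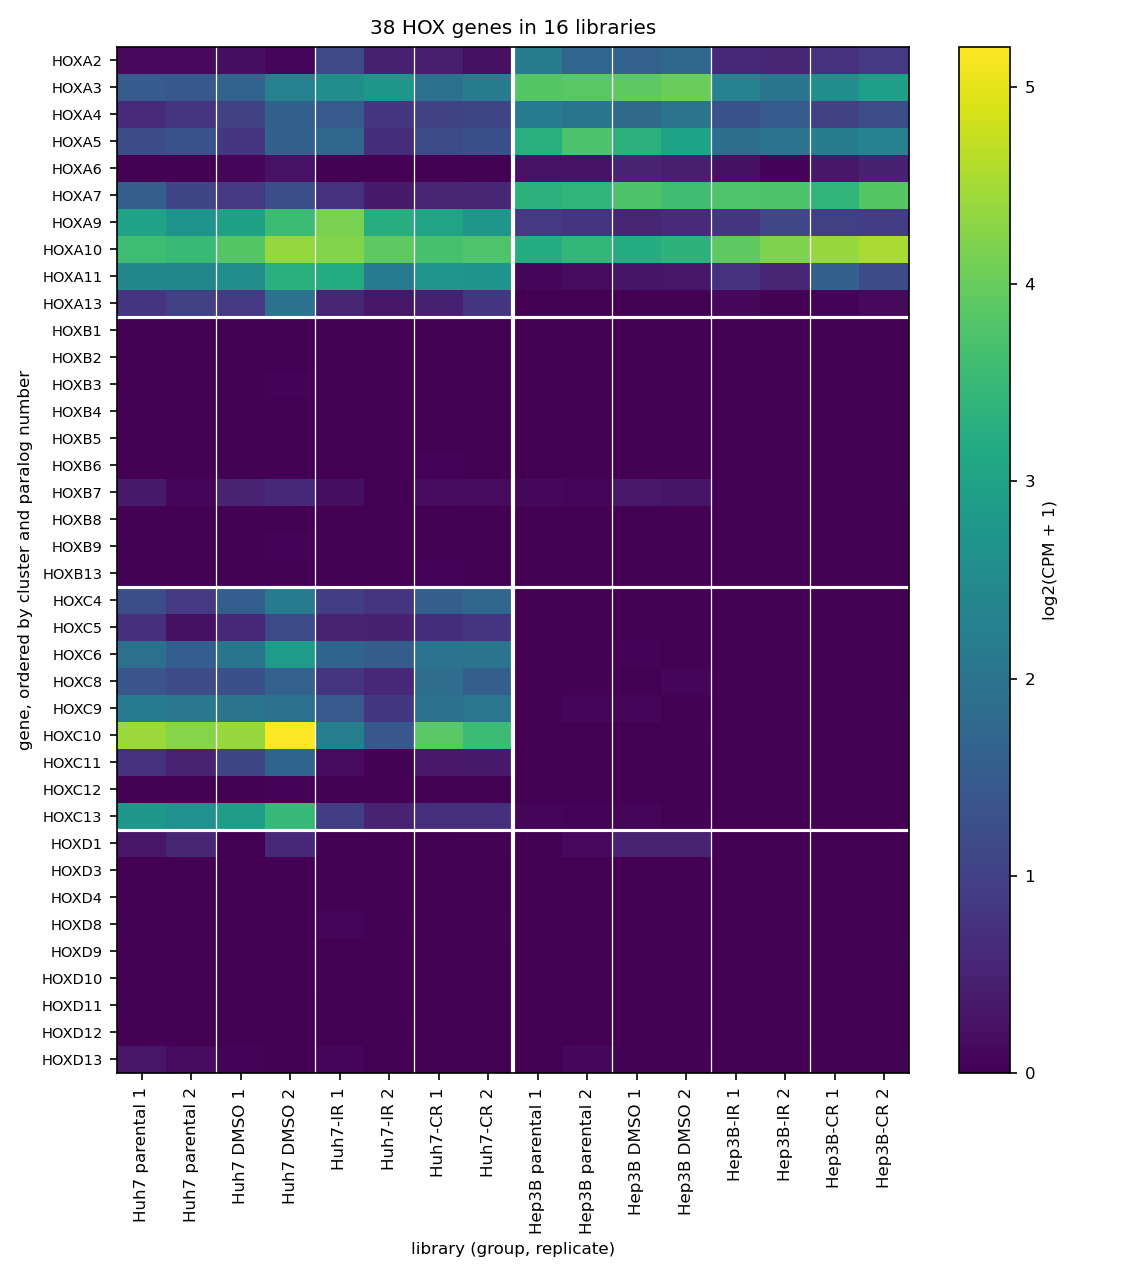
Level of 38 of the 39 HOX genes (rows, by cluster and paralog number) in the 16 libraries (columns, by group), as log2(CPM + 1) in color. HOXA is filled in both lines, HOXC in Huh7 libraries only, and HOXB and HOXD stay at the bottom of the scale, with no value above 0.517 CPM.

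HOXB and HOXD were nearly silent in both lines. The sum over the 10 HOXB genes was at most 0.575 CPM and the sum over the 9 HOXD genes at most 0.563 CPM. HOXB1, HOXB2, HOXB4, HOXB5, HOXD3 and HOXD4 had no read in any of the 16 libraries. HOXB7 was the highest HOXB gene, at 0.291 and 0.067 CPM in Huh7 parental, 0.428 and 0.517 CPM in DMSO, 0.149 and 0 CPM in IR, and 0.124 and 0.118 CPM in CR cells. In Hep3B cells HOXB7 was at 0.0808 and 0.0563 CPM in parental, 0.273 and 0.219 CPM in DMSO, 0 and 0.0142 CPM in IR, and 0 and 0.019 CPM in CR cells. The DMSO libraries held the highest HOXB7 values of each line, and all Hep3B resistant libraries were below all Hep3B parental ones, within a range of a few reads. HOXB9, the other HOXB gene named by level per exon length, never exceeded 0.0287 CPM.

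Among HOXD genes, HOXD1, an anterior member, was at 0.247 and 0.455 CPM in Huh7 parental and at 0.0138 and 0.517 CPM in Huh7 DMSO cells. The Huh7-IR libraries had 0.0166 and 0 CPM and the Huh7-CR libraries 0 and 0.0262 CPM, under the parental ones without overlap. Hep3B cells had 0 and 0.0985 CPM in parental and 0.429 and 0.411 CPM in DMSO libraries, and no HOXD1 read in IR or CR libraries. HOXD13, a limb and genital gene at the posterior end, was at 0.247 and 0.107 CPM in Huh7 parental cells and at most 0.0844 CPM in all other libraries. None of these genes passed the filter, and none was tested.

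Levels between genes can be compared only per length, so CPM were divided by the kilobases of exon of one transcript per gene. On this scale (CPM per kb, mean ± SD, n = 2) HOXC10 was highest in Huh7 parental cells at 9.73 ± 0.835, and HOXA10 was at 4.24 ± 0.140 and HOXA9 at 3.01. In Hep3B parental cells HOXA5 was at 6.29 ± 1.48, HOXA7 at 4.65 ± 0.173, HOXA3 at 4.42 ± 0.0732 and HOXA10 at 3.60 ± 0.426, and the libraries of each did not overlap those of the next in this order. The order in Hep3B-CR cells was HOXA10 (8.38 ± 0.573), HOXA7 (5.64 ± 1.26) and HOXA5 (2.27), and HOXA10 and HOXA7 came first in Hep3B-IR cells as well, at 6.20 ± 0.905 and 6.21 ± 0.0586, where they did not differ beyond their spread.

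The first comparison asked how the HOX genes of the starting lines differed. Of the 16 genes tested, 9 were higher and 6 lower in Huh7 than in Hep3B parental cells by limma (BH-adjusted p under 0.05 over 15019 genes and an absolute log2 fold change from 0.58 upwards), where 18.9% of all genes were higher and 23.7% lower. All 7 HOXC genes tested were among those higher. They reached 1 CPM in Huh7 libraries only, so their direction was largely set by the filter. The anterior genes HOXA2 and HOXA3 were lower in Huh7, and 6 of 7 posterior genes tested were higher, with the seventh, HOXA10, not called. Of these 6, only HOXA11 reached 1 CPM in both libraries of a Hep3B group (CR), and the others passed the filter through Huh7 libraries. HOXA2, in turn, passed it through Hep3B libraries, so these directions were in part set by the filter. The central genes split by cluster, with HOXA4, HOXA5 and HOXA7 lower and HOXC4, HOXC6 and HOXC8 higher in Huh7 cells.

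HOXA3, which acts in the pharyngeal arches that form thymus and parathyroid, was at 1.82 and 1.69 CPM in Huh7 and 13.2 and 13.5 CPM in Hep3B parental cells, and HOXA5, a gene of lung development, at 1.3 and 1.47 CPM against 8.76 and 12.3 CPM. HOXA7, a trunk gene, was at 1.99 and 1.14 CPM against 9.13 and 9.62 CPM. Both Hep3B libraries were above both Huh7 libraries for each of them, with log2 differences of Huh7 minus Hep3B in log2(CPM + 1) of -2.39 for HOXA3, -2.26 for HOXA5 and -2.04 for HOXA7. The scale of log2(CPM + 1) understates the change of low genes throughout.

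HOXA11, a gene of forearm and uterus, showed the opposite order, at 4.34 and 4.21 CPM in Huh7 and 0.0673 and 0.113 CPM (5 and 8 reads) in Hep3B parental cells, with a log2 difference of 2.27 (SE 0.30, limma adjusted p = 5.76e-05). HOXA9, a gene of blood stem cells and leukemia, was at 7 and 5.42 CPM against 0.821 and 0.731 CPM, a log2 difference of 2.01 (SE 0.28, limma adjusted p = 8.45e-05). Its exons overlap the HOXA10-HOXA9 readthrough gene on the same strand, which had nearly the same values, so reads of both cannot be told apart. HOXA10 was at 11 and 10.5 CPM against 8.37 and 9.9 CPM, a log2 difference of 0.22 (limma adjusted p = 0.401).

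HOXC genes were at or below 0.0703 CPM in all 8 Hep3B libraries. HOXC4 and HOXC11 had no read in them, so that their level in Huh7 parental cells was at least 26.0-fold and at least 13.3-fold higher than 3 reads per Hep3B library (0.0422 CPM). The same bound gave at least 20.2-fold for HOXA13, the most posterior HOXA gene, which Huh7 parental cells had at 0.728 and 0.978 CPM and Hep3B parental cells at 0 in both libraries. HOXC10 had the largest log2 difference of the 16 genes tested, 4.33, followed by HOXC13 at 2.63.

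In Hep3B cells the resistant lines had less of the anterior side of HOXA and more of HOXA10 than parental cells. Of the 16 genes tested, 5 fell and 1 rose in Hep3B-IR cells, where 11.4% of all genes were lower and 15.7% higher. In Hep3B-CR cells 5 fell and 2 rose, against 12.3% lower and 20.0% higher genes. HOXA2, HOXA3, HOXA4 and HOXA5 were among those that fell in both comparisons, and those that rose were HOXA10 in both and HOXA11 in Hep3B-CR cells. Both comparisons share the parental libraries. With a pseudocount of 4 CPM in place of 1 CPM the calls of HOXA2, HOXA4 and HOXA11 in Hep3B-CR and of HOXA4 in Hep3B-IR cells were lost, and without CR replicate 1 the Hep3B-CR count was 4 genes in place of 7.

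HOXA2, which sets the identity of the second pharyngeal arch, was at 3.55 and 2.25 CPM in parental, 2.11 and 2.32 CPM in DMSO, 0.522 and 0.455 CPM in IR, and 0.675 and 0.819 CPM in CR cells. Mean parental levels were 5.94-fold those of IR and 3.89-fold those of CR cells. HOXA3 was at 13.2 and 13.5 CPM in parental, 14 and 15.3 CPM in DMSO, 3.95 and 3.06 CPM in IR, and 5.03 and 6.66 CPM in CR cells. The 4 resistant libraries lay below the 4 drug-free ones for both genes. Among Hep3B libraries only the drug-free ones reached 1 CPM of HOXA2, so its direction was largely set by the filter. Limma gave log2 changes of -1.37 (adjusted p = 0.000481) and -1.14 (adjusted p = 0.00137) for HOXA2 in IR and CR cells, and of -1.68 (adjusted p = 0.000156) and -1.08 (adjusted p = 0.0025) for HOXA3.

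HOXA5 was at 8.76 and 12.3 CPM in parental, 9.12 and 7.06 CPM in DMSO, 2.7 and 2.97 CPM in IR, and 3.6 and 3.98 CPM in CR cells. The resistant libraries were all below the drug-free ones, and parental and DMSO libraries overlapped. It fell by 1.57 (SE 0.33, limma adjusted p = 0.00322) in IR and by 1.25 (SE 0.33, limma adjusted p = 0.0102) in CR cells, and the CR call was lost without parental replicate 2 or without CR replicate 1. HOXA4, an axial patterning gene, had a smaller difference, at 3.45 and 3.05 CPM in parental, 2.49 and 2.99 CPM in DMSO, 1.49 and 1.79 CPM in IR, and 1.02 and 1.35 CPM in CR cells. It fell by 0.69 (SE 0.23, limma adjusted p = 0.0384) in IR cells, a call that neither edgeR nor DESeq2 made and that each of the 4 left-out libraries ended, and by 0.96 (SE 0.23, limma adjusted p = 0.00623) in CR cells, a call that ended without CR replicate 1.

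HOXA10, a uterine and limb gene at the posterior side, was at 8.37 and 9.9 CPM in parental, 8.33 and 9.36 CPM in DMSO, 14.1 and 17.4 CPM in IR, and 20.3 and 22.3 CPM in CR cells. All 4 resistant libraries were above all 4 drug-free ones. It rose by 0.72 on the log2 scale (SE 0.21, limma adjusted p = 0.0183) in IR and by 1.14 (SE 0.21, limma adjusted p = 0.00108) in CR cells. The IR call ended without parental replicate 1 (0.61) or without IR replicate 2 (0.58).

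HOXA11 was nearly absent from drug-free Hep3B cells, at 0.0673 and 0.113 CPM in parental and 0.221 and 0.247 CPM in DMSO libraries. It was at 0.696 and 0.469 CPM (52 and 33 reads) in IR and at 2.01 and 1.31 CPM (152 and 69 reads) in CR cells, again without overlap. In CR cells it rose by 1.28 (SE 0.30, limma adjusted p = 0.00574), and without CR replicate 1 the change was 1.09 and the call was lost. Its log2 change in IR cells, 0.53 (limma adjusted p = 0.206), was not called, whereas edgeR and DESeq2 on the recovered reads called it at 2.61 and 2.62. HOXA13 stayed at or below 0.0952 CPM in every Hep3B library.

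HOXA7 and HOXA9, which lie between the genes that fell and those that rose, were not called in Hep3B cells. HOXA7 was at 9.13 and 9.62 CPM in parental, 12.5 and 11.1 CPM in DMSO, 12.6 and 12.4 CPM in IR, and 9.57 and 13.2 CPM in CR cells. The IR and DMSO libraries were above the parental ones, and the CR libraries overlapped them. HOXA9 was at 0.821 and 0.731 CPM in parental and between 0.763 and 1.17 CPM in resistant libraries. HOXA6, which is next to HOXA5 and HOXA7, did not pass the filter and stayed between 0.0426 and 0.429 CPM in the 8 Hep3B libraries. Exons of HOXA7 overlap the antisense gene HOXA-AS3 over 1507 bases (74.8% of its exon length), and those of HOXA10 and HOXA11 overlap their antisense genes over 23.9% and 27.2%. Exons of HOXA3 and HOXA4 overlap the antisense gene HOXA-AS2 over 11.2% and 14.0%, those of HOXA4 also an unnamed gene on the same strand over 32.1%, and those of HOXD1 an unnamed antisense gene over 52.4% and HAGLR over 7.69%. Whether the counting used strand is not stated, so that such reads cannot be told apart. HOXA-AS3 was at or below 0.117 CPM.

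**Figure D2:**
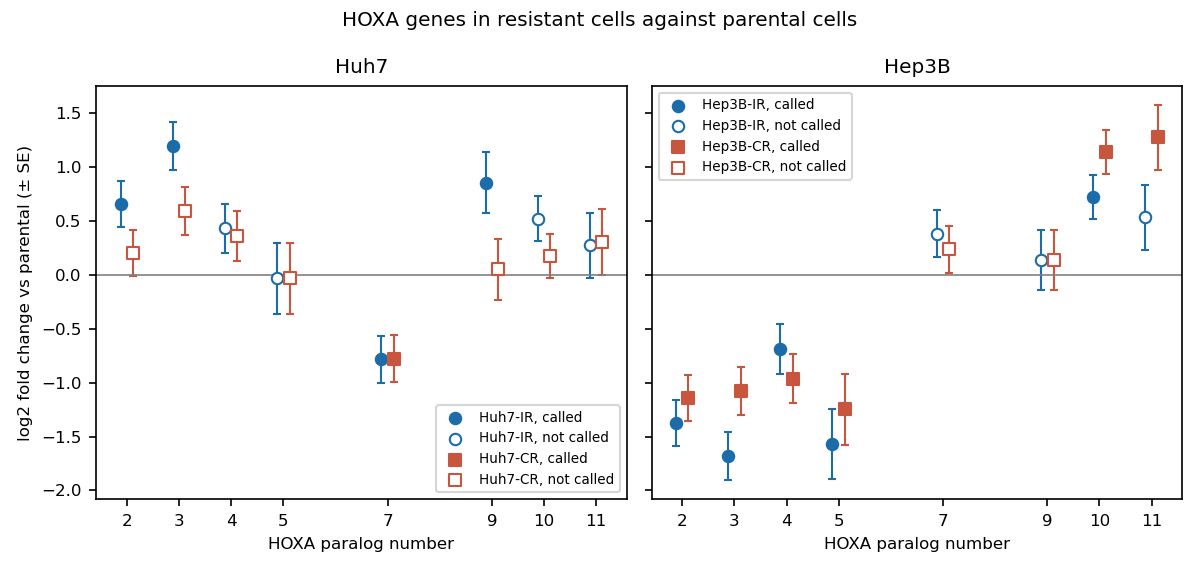
Log2 fold change of log2(CPM + 1) against parental cells (y axis, ± SE from limma) of HOXA genes along the cluster (x axis, paralog number) in IR and CR cells of Huh7 and Hep3B, with filled symbols for called genes. In Hep3B cells HOXA2 to HOXA5 are below 0 in IR and CR cells and HOXA10 is above it, and in Huh7 cells HOXA7 is below 0 between HOXA3 and HOXA9, which are above it in IR cells.

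The balance within the cluster moved with these genes. The summed posterior HOXA genes were at 10.0 ± 1.05 CPM in Hep3B parental, 9.61 ± 0.817 CPM in DMSO, 17.3 ± 2.39 CPM in IR and 24.0 ± 0.967 CPM in CR cells (SD, n = 2). Posterior genes thus took 15.2 ± 0.314% of HOXA reads in parental, 14.5 ± 1.86% in DMSO, 41.4 ± 3.87% in IR and 45.4 ± 2.39% in CR cells. The posterior share in Huh7 cells was 61.9 ± 1.07% in parental, 66.9 ± 2.59% in DMSO, 70.9 ± 3.54% in IR and 67.7 ± 0.668% in CR cells. The resistant Hep3B groups lay between Hep3B and Huh7 parental cells in this share. These are sums over members chosen with results known, and no test was made of them.

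**Figure D3:**
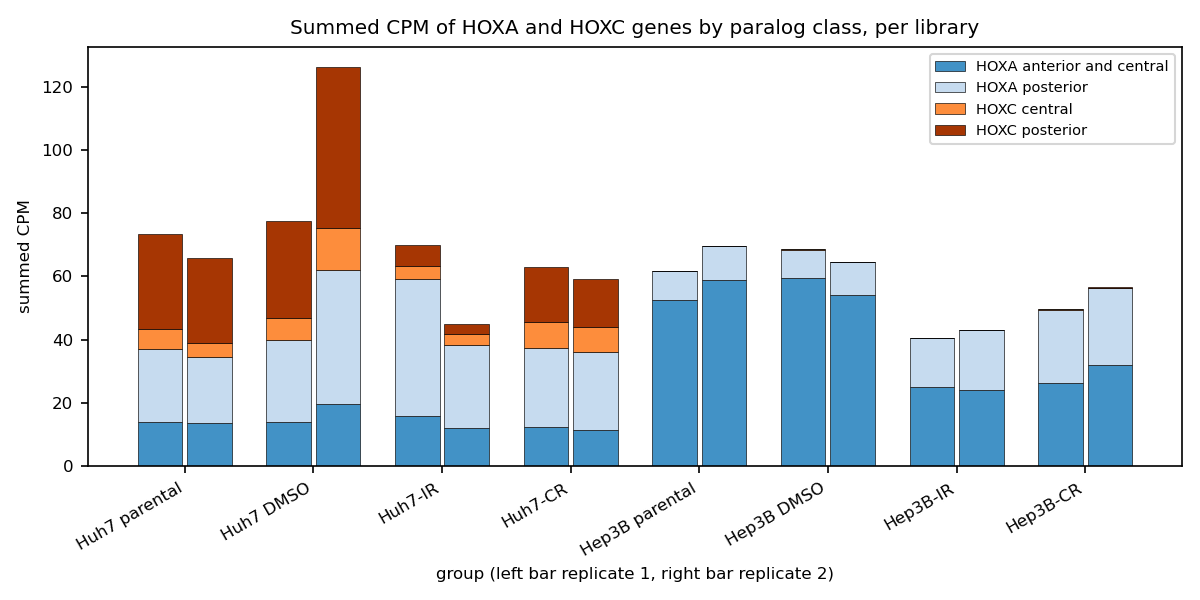
Summed CPM of HOXA anterior and central, HOXA posterior, HOXC central and HOXC posterior genes in each of the 16 libraries (stacked bars, y axis from 0). HOXC makes up part of every Huh7 bar and of no Hep3B bar that can be seen, and the posterior HOXA part of Hep3B bars goes from 10.0 CPM in parental to 17.3 CPM in IR and 24.0 CPM in CR cells (group means).

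Upstream sequence of HOXA genes is shown where the RefSeq promoter table holds an entry, for 2 members that fell (HOXA2, HOXA4) and the 2 that rose (HOXA10, HOXA11) in Hep3B resistant cells. The table held 27 entries for 20 of the 39 genes, and none for HOXA3 or HOXA5. Each sequence is the 250 bases before a start site, from RefSeq, and matched GRCh37 once on the minus strand. Capitals mark matches to the TATA box TATAAA or to TGATNNAT, letters bound by PBX with HOX proteins, on either strand.
HOXA2 (chr7:27142303-27142552): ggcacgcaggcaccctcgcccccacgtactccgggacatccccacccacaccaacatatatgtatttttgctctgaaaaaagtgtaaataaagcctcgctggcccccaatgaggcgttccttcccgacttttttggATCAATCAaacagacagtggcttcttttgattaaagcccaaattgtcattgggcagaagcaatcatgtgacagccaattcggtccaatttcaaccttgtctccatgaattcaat
HOXA4 (chr7:27170377-27170626): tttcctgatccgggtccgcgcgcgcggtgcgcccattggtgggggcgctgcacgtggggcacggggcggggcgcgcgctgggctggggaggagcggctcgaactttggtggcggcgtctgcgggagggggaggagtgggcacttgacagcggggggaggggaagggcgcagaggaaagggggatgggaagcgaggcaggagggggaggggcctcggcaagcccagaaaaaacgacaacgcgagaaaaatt
HOXA10, downstream start (chr7:27213940-27214189): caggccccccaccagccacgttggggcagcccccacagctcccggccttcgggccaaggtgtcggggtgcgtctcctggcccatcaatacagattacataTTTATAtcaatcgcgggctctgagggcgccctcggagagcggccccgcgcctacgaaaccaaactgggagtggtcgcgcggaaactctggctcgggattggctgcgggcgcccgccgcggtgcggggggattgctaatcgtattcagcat
HOXA11 (chr7:27224852-27225101): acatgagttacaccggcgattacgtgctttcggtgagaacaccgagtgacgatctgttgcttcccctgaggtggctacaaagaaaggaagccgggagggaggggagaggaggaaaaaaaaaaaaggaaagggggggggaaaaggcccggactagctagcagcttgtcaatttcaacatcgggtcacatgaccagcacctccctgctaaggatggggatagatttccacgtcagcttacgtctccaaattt
HOXA2 held 1 PBX-HOX match and the HOXA10 sequence shown 1 TATA match, read on the other strand. Another HOXA10 start lies upstream (250 bases at chr7:27219481-27219730, not shown), with 1 TATA match on the coding strand and 19 CpG. TATAAA was found in 10.7% of the 35116 promoters and in 5 of the 27 HOX entries, TGATNNAT in 6.47% and in 3, and TTTATG, letters bound by CDX proteins that share a start with the reversed TATA box, in 9.64% and in 3, none of them among these 4. The sequences of HOXA4 and HOXA10 were richer in CpG (26 and 24) than those of HOXA2 and HOXA11 (8 and 11), so that this count did not follow the direction of change. Such matches are descriptions of letters and not binding sites.

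In Huh7-IR cells the posterior HOXC genes were lower than in parental cells. Of the 16 genes tested, 6 fell and 3 rose, where 17.8% of all genes were lower and 31.1% higher. Among the genes that fell were HOXA7, HOXC8, HOXC9, HOXC10 and HOXC13, and those that rose were HOXA2, HOXA3 and HOXA9. In Huh7-CR cells 2 fell, HOXA7 and HOXC13, and 1 rose, HOXC4, against 13.6% lower and 20.9% higher genes. With TMM factors the Huh7-CR split was 3 lower and 0 higher, since HOXC4 did not pass the threshold. A pseudocount of 4 CPM kept HOXA3, HOXA9, HOXC10 and HOXC13 in Huh7-IR cells and HOXC13 in Huh7-CR cells. For Huh7-IR cells TMM factors moved the median over all genes from 0.19 to 0.04 on the log2 scale.

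HOXC10, a gene of hindlimb and lumbar motor neurons, was the highest HOX gene of drug-free Huh7 cells, at 20.4 and 18.1 CPM in parental and 20.1 and 35.9 CPM in DMSO libraries. It was at 3.76 and 1.65 CPM in IR and at 13.7 and 10.9 CPM in CR cells. Both IR libraries were far below the other 6, and the CR libraries were below the drug-free ones without overlap. HOXC10 fell by 2.51 on the log2 scale (SE 0.28, limma adjusted p = 1.54e-05) in IR cells, and its change of -0.61 (SE 0.28, limma adjusted p = 0.103) in CR cells was not called. With DMSO cells as the reference the CR change was -1.07 and called.

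HOXC13, a gene of hair and nail formation, was at 5.82 and 5.17 CPM in parental, 6.55 and 10.2 CPM in DMSO, 0.928 and 0.429 CPM in IR, and 0.618 and 0.641 CPM in CR cells. All 4 resistant libraries were below 1 CPM and all 4 drug-free ones above 5 CPM. It fell by 1.97 (SE 0.19, limma adjusted p = 4.9e-06) in IR and by 1.99 (SE 0.19, limma adjusted p = 7.76e-06) in CR cells, and no alternative ended either call. HOXC13 passed the filter through the drug-free Huh7 libraries alone, so this direction was largely set by the filter. Mean parental levels were 8.10-fold those of IR and 8.73-fold those of CR cells. HOXC11, another posterior gene of the cluster, was at 0.684 and 0.442 CPM in parental, 0.116 and 0.0215 CPM in IR, and 0.278 and 0.301 CPM in CR cells, without overlap between resistant and parental libraries. Its log2 change of -0.55 in IR cells was under the fold threshold by limma, whereas edgeR and DESeq2 on the recovered reads called it at -3.11 and -3.20.

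HOXC9, a gene of thoracic segments, was at 3.38 and 3.2 CPM in parental, 3.01 and 2.71 CPM in DMSO, 1.74 and 0.794 CPM in IR, and 2.89 and 3.1 CPM in CR cells. Only the IR libraries stood apart, and HOXC9 fell by 0.95 there (SE 0.17, limma adjusted p = 0.000583). HOXC8 was at 1.6 and 1.3 CPM in parental and 1.42 and 2.13 CPM in DMSO cells. It was at 0.746 and 0.493 CPM in IR and at 2.61 and 1.99 CPM in CR cells. The IR libraries were below all drug-free ones, and the CR libraries were above the parental ones but overlapped the DMSO ones. HOXC8 fell by 0.60 (SE 0.16, limma adjusted p = 0.00597) in IR cells, and its CR change of 0.43 was under the fold threshold. No IR library reached 1 CPM, so the direction of the IR change was in part set by the filter.

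HOXC4 and HOXC6, at the central end, were not called in Huh7-IR against parental cells, and against DMSO cells both were called lower, by -0.98 and -0.83. HOXC4 was at 1.37 and 0.83 CPM in parental, 1.96 and 3.49 CPM in DMSO, 0.962 and 0.729 CPM in IR, and 1.99 and 2.29 CPM in CR cells. It rose by 0.59 (SE 0.19, limma adjusted p = 0.0237) in CR against parental cells, which edgeR, DESeq2 and TMM factors did not call, which ended without parental replicate 2 or without either CR library, and which turned to -0.22 against DMSO cells. HOXC6 was at 2.76 and 1.96 CPM in parental, 3.05 and 6.26 CPM in DMSO, 2.2 and 1.89 CPM in IR, and 2.94 and 3.01 CPM in CR cells. The IR libraries overlapped the parental ones and the CR and DMSO libraries were above them, and no difference from parental cells was called with all libraries in the fit. HOXC5 stayed between 0.174 and 1.25 CPM in Huh7 cells, and HOXC12 at or below 0.0287 CPM.

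**Figure D4:**
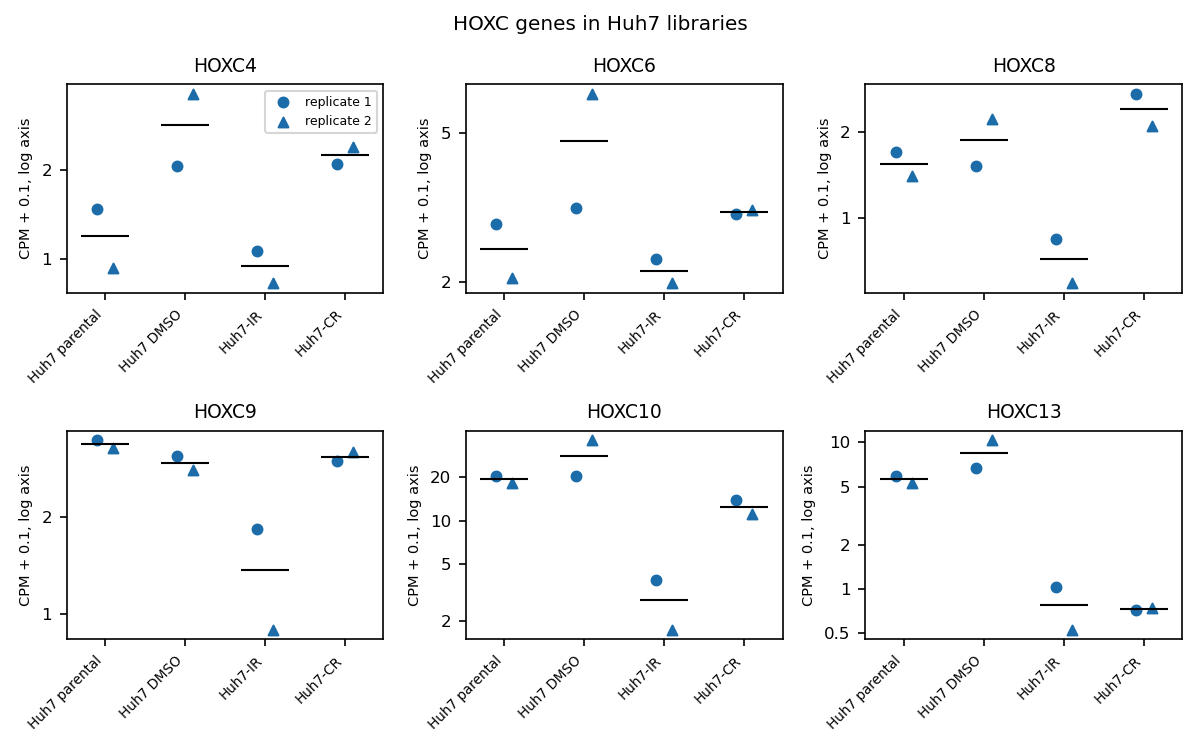
CPM + 0.1 on a log axis of HOXC4, HOXC6, HOXC8, HOXC9, HOXC10 and HOXC13 in the Huh7 libraries (x axis, group), with circles for replicate 1, triangles for replicate 2 and a line at the mean. HOXC10 is lowest in IR cells, at 3.76 and 1.65 CPM, and HOXC13 is below 1 CPM in IR and CR cells.

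HOXC took 48.1 ± 1.66% of HOX reads in Huh7 parental, 49.3 ± 1.43% in DMSO, 14.9 ± 0.866% in IR and 39.7 ± 1.22% in CR cells (SD, n = 2). HOXC10 and HOXC13 together were 73.1% of HOXC reads in parental, 71.2% in DMSO, 37.8% in IR and 53.1% in CR cells. The posterior HOXC sum was 28.6 ± 2.40 CPM in parental and 4.72 ± 2.58 CPM in IR cells, and the central HOXC sum a mean of 5.32 CPM and 3.91 CPM, within the spread of the libraries. The posterior HOXA sum was 22.1 ± 1.38 CPM in parental and 34.8 ± 12.1 CPM in IR cells, with 34.3 ± 11.8 CPM in DMSO cells, so that the IR level of posterior HOXA was near that of DMSO cells.

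Genes of HOXA moved in both directions in Huh7-IR cells. HOXA3 was at 1.82 and 1.69 CPM in parental, 2.17 and 3.86 CPM in DMSO, 4.91 and 5.75 CPM in IR, and 2.78 and 3.55 CPM in CR cells, and both IR libraries were the highest of the line. It rose by 1.20 (SE 0.22, limma adjusted p = 0.000649) in IR cells, and the difference from DMSO cells was 0.69.

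HOXA2 was near the floor in Huh7 parental cells, at 0.102 and 0.0938 CPM, and at 1.21 and 0.365 CPM in IR cells. It rose by 0.66 (SE 0.21, limma adjusted p = 0.0188), and without IR replicate 1 or without either parental library the call was lost, the change being 0.31 without IR replicate 1. HOXA9 was at 7 and 5.42 CPM in parental, 6.88 and 10.9 CPM in DMSO, 16.8 and 8.45 CPM in IR, and 7.17 and 5.75 CPM in CR cells, with overlap between IR and DMSO libraries. Its rise of 0.86 (SE 0.28, limma adjusted p = 0.0202) was not called by edgeR, and it was 0.40 without IR replicate 1 and 0.42 against DMSO cells, both not called. Of the 16 genes tested, 15 were higher in replicate 1 than in replicate 2 of Huh7-IR cells, and the part of this in the HOXA changes was not tested.

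HOXA7 was at 1.99 and 1.14 CPM in parental, 0.828 and 1.36 CPM in DMSO, 0.663 and 0.3 CPM in IR, and 0.479 and 0.471 CPM in CR cells. It fell by 0.78 in IR (SE 0.22, limma adjusted p = 0.00898) and in CR cells (SE 0.22, limma adjusted p = 0.0137). Against DMSO cells the changes were -0.50 and -0.49, and neither was called. Without parental replicate 1 the calls were lost as well, as were the IR call without IR replicate 2 and the CR call without either CR library.

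HOXA10 and HOXA11, which rose in Hep3B-CR cells, were not called in Huh7 cells. HOXA10 was at 11 and 10.5 CPM in parental, 13.2 and 20 CPM in DMSO, 17.9 and 14.2 CPM in IR, and 12 and 12.6 CPM in CR cells. HOXA11 was at 4.34 and 4.21 CPM in parental, 8.16 and 3.43 CPM in IR, and 5.58 and 5.44 CPM in CR cells. HOXA4 and HOXA5 were between 0.538 and 2.39 CPM in the Huh7 libraries, and HOXA13 between 0.236 and 2.89 CPM.

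No HOX gene was called in the same direction in all 4 comparisons of resistant with parental cells. The difference between lines was tested as the mean IR and CR change in Huh7 minus that in Hep3B cells. Of the 16 genes tested, 5 differed upwards (HOXA2, HOXA3, HOXA4 and HOXA5 among them) and 3 downwards (HOXA7, HOXC10 and HOXC13), where 16.3% and 13.1% of all genes did so. HOXA3 had the largest difference, 2.28 (SE 0.27, limma adjusted p = 8.11e-05), with a mean change of 0.89 in Huh7 and -1.38 in Hep3B cells. The differences of HOXC10 and HOXC13 have a limit, since Hep3B parental cells had at most 4 HOXC13 reads per library and HOXC10 was at or below 0.0274 CPM in all Hep3B libraries. On the recovered reads edgeR and DESeq2 did not call either difference, and both called HOXC13 lower in Hep3B-IR than in parental cells, on 4 and 3 reads against 0 and 0. The call of HOXA5 was lost with edgeR, with a pseudocount of 0.25 CPM, without the filter, against DMSO cells, and without either Huh7 parental library or Hep3B parental replicate 2. Those of HOXA4 (0.42) and HOXA7 (-0.51) were lost against DMSO cells and with a pseudocount of 4 CPM, and that of HOXA7 also without Huh7 parental replicate 1 (-0.85).

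Both regimens were also compared directly, without the shared parental libraries. In Huh7-IR cells 4 of the 16 genes tested, HOXC4, HOXC8, HOXC9 and HOXC10, were lower than in Huh7-CR cells, and no gene tested was higher, where 5.43% of all genes were lower and 8.23% higher. HOXC10 had a log2 difference of -1.90 (SE 0.28, limma adjusted p = 0.00172) and HOXC8 one of -1.03 (limma adjusted p = 0.00206). Neither HOXC4 nor HOXC8 reached 1 CPM in an IR library, so their direction was in part set by the filter. HOXC9 and HOXC4 followed at -0.85 and -0.77, and edgeR and DESeq2 called 2 genes each, as did limma without CR replicate 2, and without IR replicate 2 limma called 2 lower and 2 higher genes (HOXA2 and HOXA9). In Hep3B cells limma called 1 gene lower in IR than in CR cells and none higher, where 6.41% and 5.33% of all genes were. This call was lost with edgeR, with TMM factors and without any 1 of the 4 libraries.

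DMSO cells were compared with parental cells as controls without the drug. HOXC11 reached 1 CPM in the Huh7 DMSO libraries only. It was tested because of that group, so its direction there was largely set by the filter. In Huh7 cells 2 of the 16 genes tested, HOXC4 (0.81, SE 0.19, limma adjusted p = 0.0327) and HOXC11 (0.74, SE 0.17, limma adjusted p = 0.0305), were higher and none lower, where 3.46% and 1.37% of all genes were. Neither edgeR nor DESeq2 called them, and both calls ended without DMSO replicate 2 or without either parental library. DMSO replicate 2 was above replicate 1 for 14 of the 16 genes, and without replicate 1 the count of called genes was 8. In Hep3B cells limma called 0 HOX genes in DMSO cells, where 1.07% of all genes were higher and 0.513% lower, and edgeR, DESeq2 and an unadjusted p under 0.05 also gave 0.

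Factors that act on HOX genes or with their proteins were counted from lists, and the shares of all genes called are given again for comparison. Against parental cells 31.1% of all genes were higher and 17.8% lower in Huh7 with IR and 20.9% and 13.6% with CR, and in Hep3B 15.7% and 11.4% with IR and 20.0% and 12.3% with CR. Of 9 HOX cofactors 7 were tested, and in Huh7 cells 3 rose and 2 fell with IR and 2 rose and 1 fell with CR, while in Hep3B cells 1 fell with IR and 3 fell with CR, with a median log2 change of 0.26, 0.44, -0.20 and -0.21 beside 0.19, 0.07, 0.06 and 0.11 over all genes. PBX3, a homeodomain partner of HOX proteins, was at 7.32 and 5.73 CPM in Huh7 parental, 5.72 and 4.81 CPM in DMSO, 45.6 and 25.5 CPM in IR, and 26.7 and 22.7 CPM in CR cells, and it rose by 2.23 (limma adjusted p = 4.3e-05) and 1.77 (limma adjusted p = 0.000424). All 4 resistant Huh7 libraries were above all 4 drug-free ones. MEIS2, another partner, fell by 1.55 (IR) and 1.22 (CR) in Huh7 and by 1.88 (CR) in Hep3B cells.

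Of 18 retinoid and CDX genes 11 were tested, and in Huh7 cells 5 rose and 3 fell with IR and 2 rose and 3 fell with CR. Of all genes 31.1% rose and 17.8% fell there with IR, and 20.9% rose and 13.6% fell with CR. In Hep3B cells 1 rose and 3 fell with IR and 2 rose and 4 fell with CR, beside 15.7% and 11.4% (IR) and 20.0% and 12.3% (CR) of all genes. The medians of these 11 genes were 0.43 (IR) and 0.05 (CR) in Huh7 and 0.09 (IR) and -0.14 (CR) in Hep3B cells. CDX2, the hindgut factor that acts on central and posterior HOX genes, was at 8.75 and 5.29 CPM in Huh7 parental, 11.3 and 40.6 CPM in DMSO, 0.166 and 0.0644 CPM in IR, and 0.294 and 0.589 CPM in CR cells. Both resistant groups were below 1 CPM, and it fell by 2.81 (SE 0.43, limma adjusted p = 0.000167) and 2.45 (limma adjusted p = 0.000801). RARB, a retinoic acid receptor that is itself a retinoid target, was at 10.0 and 11.6 CPM in Hep3B parental, 1.7 and 3.38 CPM in IR, and 1.15 and 2.34 CPM in CR cells, falling by 1.78 (limma adjusted p = 0.000925) and 2.14 (limma adjusted p = 0.000229). CRABP1, a carrier of retinoic acid in the cytoplasm, rose in the same cells from 0 and 0.155 CPM to 12.9 and 9.04 CPM in IR (log2 change 3.46) and 1.87 and 2.89 CPM in CR cells (1.64).

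Noncoding genes inside the clusters were mostly silent, and 3 of 18 listed were tested. HOTAIRM1, a noncoding gene of the anterior side of HOXA on the opposite strand, was at 7.75 and 8.12 CPM in Hep3B parental, 5.95 and 6.32 CPM in DMSO, 2.58 and 2.15 CPM in IR, and 2.49 and 1.41 CPM in CR cells, and fell by 1.41 (limma adjusted p = 0.000916) and 1.62 (limma adjusted p = 0.000301). HOXA-AS2, which lies over HOXA3 and HOXA4, fell there by 1.28 and 0.95. HAGLR, at the HOXD cluster, was at 4.87 and 9.98 CPM in Huh7 parental and 1.74 and 6.68 CPM in DMSO cells, and no resistant Huh7 library exceeded 0.0927 CPM, with log2 changes of -2.97 (limma adjusted p = 4.85e-05) and -2.91 (limma adjusted p = 0.0001). The median change of the 3 genes was -0.47 (IR) and -0.61 (CR) in Huh7 and -1.28 (IR) and -0.95 (CR) in Hep3B cells.

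**Figure D5:**
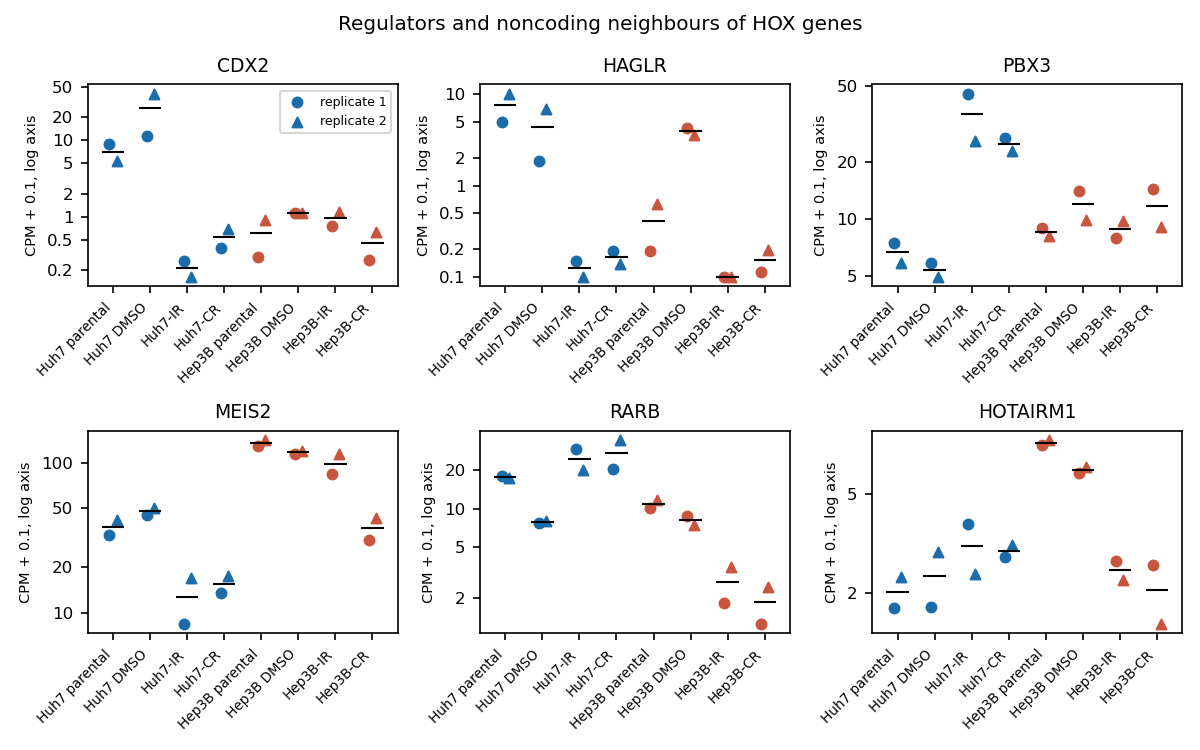
CPM + 0.1 on a log axis of CDX2, HAGLR, PBX3, MEIS2, RARB and HOTAIRM1 (1 panel each, y axis) in the 8 groups (x axis), with points for the 2 libraries of a group and a line at their mean. CDX2 and HAGLR are lower and PBX3 is higher in resistant Huh7 cells, and RARB and HOTAIRM1 are lower in resistant Hep3B cells.

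Polycomb genes, 22 of 22 tested, were called in both directions and in Huh7 cells at shares not far from or below those of all genes, apart from the lower ones with IR, with 6 rising and 5 falling (IR) and 3 and 2 (CR) in Huh7 cells, and 5 and 2 (IR) and 6 and 4 (CR) in Hep3B cells, at medians of 0.33, -0.01, 0.17 and -0.05. Of all genes 31.1% rose and 17.8% fell in Huh7-IR and 20.9% and 13.6% in Huh7-CR cells. In Hep3B cells 15.7% rose and 11.4% fell with IR and 20.0% and 12.3% with CR. PHC1, a member of the complex that binds methylated histone H3, rose in all 4 comparisons, by 1.78, 0.87, 1.29 and 1.83 on the log2 scale in the same order. EZH2, the methyltransferase, was at 65.2 and 75.4 CPM in Huh7 parental and 29.3 and 41.2 CPM in IR cells and fell by 0.99 (limma adjusted p = 0.00378). Of 15 Trithorax genes, which work against Polycomb, 3 rose and 2 fell in Huh7-IR and 1 rose and 3 fell in Hep3B-IR cells, and limma called 0 in either line's CR cells. KDM6A, an eraser of the Polycomb mark, fell by 1.21 in Huh7-IR and rose by 0.80 in Hep3B-IR cells.

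Cell type markers were counted from lists as well. Of 10 hepatocyte markers, 8 fell with IR and 7 with CR in Huh7 cells, and 3 fell and 1 rose with IR and 6 fell with CR in Hep3B cells, at medians of -4.94, -3.39, -1.90 and -3.94. Among all genes the lower shares were 17.8%, 13.6%, 11.4% and 12.3%, and the higher ones 31.1%, 20.9%, 15.7% and 20.0%. Of 10 mesenchymal markers 8 were tested, and 6, 7, 3 and 3 rose in this order of comparisons while 1, 1, 1 and 0 fell, and their summed level went from 5151 and 5582 CPM to between 7790 and 13626 CPM in resistant Huh7 and from 2042 and 2068 CPM to between 3731 and 4941 CPM in resistant Hep3B libraries. The summed level of 6 endothelial markers was at most 6.36 CPM, and that of 7 blood markers lay between 11.2 and 108 CPM. The part of these markers in the HOX changes was not tested.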

How the data were processed

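RNA-seq of 16 libraries was used, and titles gave the groups. The authors mapped reads to hg19 with STAR, kept unique hits and counted them over RefSeq exons with QuasR, as the methods and labels state, and the deposited values are CPM, counts divided by the library total. The methods state biological triplicates, a total RNA kit and another read length than the labels, which give an mRNA kit, and they do not describe the DMSO cells. Whether counting used strand is not given in the sources used here. Of the 26258 gene IDs, 26111 matched a symbol.

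CPM steps gave whole reads for 100% of values within 0.05 reads. log2(CPM + 1) was fitted with limma 3.58.1 (R 4.3.3, mean-variance trend) in a single model of 8 groups over 15019 genes that reached 1 CPM in 2 or more libraries. A gene was called at a two-sided BH-adjusted p under 0.05 over all genes and an absolute log2 fold change from 0.58 upwards. On simulated data for Huh7-IR against parental cells (15019 genes, 100 changed per fold size) limma recovered 87% of genes at a log2 fold of 1 and 100% at a log2 fold of 2, with 10 false calls. The simulation gave all genes 1 setting of the replicate spread and changed only genes with a mean above 2 CPM. These figures therefore do not describe the real Huh7-IR libraries, whose replicates were less alike, or low HOX genes.

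Alternatives were edgeR 4.0.16 and DESeq2 1.42.0 on the recovered reads, TMM factors, pseudocounts of 0.25 and 4 CPM, no filter (23311 genes), only the groups compared, the replicate number as a block, unadjusted p, DMSO cells as reference, and each library left out. In Huh7-IR against parental cells edgeR called 7680 genes (4148 higher, 3532 lower) where limma called 7336 (4666 higher, 2670 lower).

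Coordinates, exon lengths and homeobox sequences came from GENCODE on GRCh37 and upstream sequences from RefSeq. Members and lists were chosen with earlier results of these data known. Genes named with all values were the 2 highest per cluster by CPM per kb of exon, the 3 largest and 3 lowest called changes per resistant comparison and between parental lines, and up to 3 called per direction for the difference between lines. Of the other lists, the 2 largest called changes in each direction could be named. HOXC5, HOXC8, HOXC11, HOXA6 and HOXA13 were added to the text after their values were seen. Values of 1 HOX gene and of 2 genes on the other lists are not reported here, though counts and sums include them.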

Additional observations from a re-analysis of the deposited data

Results flagged for a closer look

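The change from parental to resistant cells (mean of IR and CR) differed between the lines for 8 of the 16 HOX genes tested by the interaction contrast of limma, of which 7 are given here. Differences are those of Huh7 minus Hep3B cells in log2(CPM + 1), and no explanation was tested. HOXA3 differed by 2.28 (adjusted p = 8.11e-05), with a change of 0.89 in Huh7 and -1.38 in Hep3B cells. HOXA2 differed by 1.69 (adjusted p = 0.000513, 0.43 and -1.26) and HOXA4 by 1.22 (adjusted p = 0.00645, 0.39 and -0.83). HOXA5 differed by 1.38 (adjusted p = 0.0212), with nearly no mean change in Huh7 (-0.03) and -1.41 in Hep3B cells, and this call was lost under 7 alternatives, edgeR and the DMSO reference among them. With DMSO cells as the reference HOXA4 was not called either.

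HOXA7 differed in the other direction, by -1.09 (adjusted p = 0.00905), with -0.78 in Huh7 and 0.31 in Hep3B cells, and the call was lost with a pseudocount of 4 CPM, against DMSO cells and without Huh7 parental replicate 1. HOXC10 differed by -1.55 (adjusted p = 0.00501, -1.56 and -0.01) and HOXC13 by -1.92 (adjusted p = 8.66e-05, -1.98 and -0.06), and both were at or near the limit of 3 reads in every Hep3B library. On the read counts, where a few Hep3B reads set the fold change, edgeR gave 0.39 for HOXC10 and 0.43 for HOXC13, and neither edgeR nor DESeq2 called them.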

How the results depend on the processing

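Of the values for single genes, 1727 kept their side of the threshold under the alternatives, 94 lost a call, 37 gained one and 4 that were called changed sign. The 4 were HOXC4 in Huh7-CR cells with DMSO cells as the reference (-0.22), the line difference of HOXC10 by edgeR (0.39) and that of HOXC13 by edgeR (0.43) and DESeq2 (0.32). Changes of sign between values not called are among the 1727, as for HOXC9 in the line difference (-0.49 by limma, 0.74 by edgeR). Of the counts and cluster sums under the alternatives, 143 stayed within 1.5 times or within the spread between replicates and 36 did not. A pseudocount of 4 CPM lowered the count of called HOX genes to 4 in Huh7-IR (from 9), 1 in Huh7-CR (from 3), 4 in Hep3B-CR (from 7), 0 in Huh7 DMSO (from 2), 1 in Huh7-IR against Huh7-CR (from 4) and 0 in Hep3B-IR against Hep3B-CR cells (from 1). A fit of only the groups compared, with fewer samples for the spread, gave 5 for Huh7-IR, 0 for Huh7 DMSO, 0 for Huh7-IR against Huh7-CR and 0 for Hep3B-IR against Hep3B-CR cells. edgeR and DESeq2 gave 0 and 0 for Huh7 DMSO and 2 and 2 for Huh7-IR against Huh7-CR cells, and DESeq2 gave 2 for Hep3B-IR against Hep3B-CR cells. Unadjusted p gave 4 for Huh7 DMSO and 3 for Hep3B-IR against Hep3B-CR cells, where TMM factors and no filter gave 0.

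The log2 ratio of summed HOXA levels to parental cells was 0.45 (IR) and 0.04 (CR) in Huh7 cells, and against DMSO cells -0.066 and -0.48. TMM factors gave -0.060 for CR. Summed HOXC had -1.97 and -0.48, and -2.56 and -1.07 against DMSO cells. Apart from the cases whose construction is named, the cause was not tested. With 1 library left out at a time, the lone library of its group being assumed to vary like the others, the counts of called HOX genes ran from 6 to 10 in Huh7-IR, 1 to 2 in Huh7-CR, 4 to 5 in Hep3B-IR, 4 to 7 in Hep3B-CR and 0 to 8 in Huh7 DMSO cells. They were 0 in Hep3B DMSO cells, 2 to 4 between Huh7-IR and Huh7-CR, 0 between Hep3B-IR and Hep3B-CR, 14 to 15 between parental lines and 6 to 10 for the line difference. The HOXA ratio ran from 0.10 to 0.73 in Huh7-IR, -0.01 to 0.09 in Huh7-CR, -0.73 to -0.56 in Hep3B-IR and -0.41 to -0.22 in Hep3B-CR cells, and the HOXC ratio from -2.41 to -1.64 in Huh7-IR and -0.59 to -0.36 in Huh7-CR cells.

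With the replicate number as a block the counts were 9, 4, 6 and 7 for the 4 comparisons of resistant with parental cells, 2 and 0 for DMSO cells, 4 and 0 between regimens, 15 between parental lines and 8 for the line difference. Same-numbered libraries deviated together for some pairs of groups and not for others, with correlations of -0.22 to 0.44, a median of 0.073 and 13 of 28 above 0.1. The numbers were not taken as pairs in the main fit. Most values of HOXB, HOXD and the HOXC genes of Hep3B cells were 0 or a few reads, and the part of depth in this was not tested.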
